A study of Bos taurus with 27 samples.

Results

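The mRNA abundance of 10 genes that write, copy, oxidize, remove or protect DNA methylation was examined in 27 pools of bovine blastocysts. The genes were chosen by name from the 32637 genes counted, and all 10 were listed in the counts, as DNMT1, DNMT3A, DNMT3B, DNMT3L, UHRF1, TET1, TET2, TET3, TDG and DPPA3. Each pool held the RNA of 2 expanding or expanded blastocysts (stage code 7) of quality code 1, produced in vitro from oocytes of abattoir cattle of mixed breeds and fertilized with semen of a single bull. All oocytes were matured with preovulatory follicular fluid, gathered from follicles of either greater or lesser maturity and combined within each class. The study asked whether that maturity alters the blastocyst transcriptome. Neither the follicle maturity treatment nor the IVF replicate of a pool was assigned here, so the 27 pools were described as 1 set and no treatment comparison was made.

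DNA methylation at CpG sites is laid down on unmethylated DNA by the de novo methyltransferases DNMT3A and DNMT3B, and is copied to the new strand after replication by DNMT1, which UHRF1 brings to hemimethylated sites. TET dioxygenases oxidize 5-methylcytosine, and TDG excises the most oxidized products so that base excision repair can restore cytosine. Preimplantation embryos lose much of the methylation inherited from the gametes and then regain it as the epiblast and the extraembryonic lineages form, while DPPA3, also named STELLA or PGC7, shields part of the maternal genome from oxidation.

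The lowest total count of a pool was 10517606, the median 22293594 and the highest 44253564. Abundance is given as CPM, the count of a gene per 1000000 counts of its pool, and 3 counts were equal to between 0.0678 and 0.285 CPM. The libraries were made from the 3' ends of transcripts, so CPM values of different genes compare 3'-end reads and were not divided by transcript length. Genes with at least 1 CPM in at least 12 pools were retained, which left 12310 genes, among them 9 of the 10 studied here. Markers of trophectoderm, the outer lineage that forms the placenta, were abundant, with all 10 retained and a summed level of at least 16297 CPM. Epiblast and hypoblast markers of the inner cell mass were also present, although FGF4, NODAL, SOX17 and FOXA2 had a median of 0 CPM. Leukocyte markers summed to between 14.9 and 120 CPM and cumulus or granulosa markers to between 24.1 and 81.7 CPM. A few pools stood apart. Pool 9 had a summed hypoblast level of 84.9 CPM, against 252 CPM in the next pool, and the highest leukocyte sum. Pool 31 had the highest trophectoderm sum, 39894 CPM, and the lowest epiblast sum, 205 CPM. Pool 32 had an S-phase marker sum of 2507 CPM, against 1907 CPM in the next pool. Pool 1 had the highest sum of oocyte-derived transcripts, 167 CPM.

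DNMT3A was the most abundant of the 10 genes in every pool, and DNMT3L was close to absent. DNMT3A (chr11:73971517-74074893, ARS-UCD2.0) ranged from 439 CPM in pool 35 through a median of 692 CPM to 1168 CPM in pool 31. It exceeded DPPA3, the next gene in order of median, in 27 of 27 pools, at a median ratio of 2.60. Its median stood at the 98.2 percentile of retained genes. The DNMT3A locus overlaps that of LOC112448893, which had a median of 0 CPM.

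DNMT3B (chr13:62142409-62176735), the second de novo enzyme, was lower. It ranged from 24.7 CPM in pool 9 to 85.6 CPM in pool 14, with a median of 56.9 CPM. In all 27 pools it was below DNMT3A, which was between 7.16 and 22.0 times as high. DNMT3A supplied between 83.4% and 94.2% of the counts on the 4 DNMT genes, with a median of 90.7%, whereas the median share of DNMT3B was 6.96% and that of DNMT1 was 2.09%.

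DNMT3L (chr1:144241619-144256972) encodes a cofactor of the de novo enzymes that has no methyltransferase activity of its own and is best known from germ cells. It had 21 counts in all 27 pools together, was at 0 in 19 pools and exceeded 3 counts in 1 pool, pool 24, where 8 counts gave 0.257 CPM. Its expression was not detectable at this depth in the other 26 pools.

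The maintenance pair was present at similar, modest levels. DNMT1 (chr7:14679336-14730638) ranged from 6.18 CPM in pool 41 to 33.6 CPM in pool 1, with a median of 16.2 CPM. UHRF1 (chr7:19223876-19257799) ranged from 6.26 CPM in pool 45 to 31.1 CPM in pool 1, with a median of 13.9 CPM. DNMT1 was the higher of the pair in 18 of 27 pools and their ranges overlapped almost wholly, so their order was not steady between pools. The UHRF1 locus overlaps that of ARRDC5, which had a median of 0.0340 CPM.

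Among the 3 dioxygenases, TET1 predominated. TET1 (chr28:24907396-25044214) ranged from 72.4 CPM in pool 9 through a median of 211 CPM to 406 CPM in pool 1, and it held between 94.6% and 99.4% of TET counts. Apart from those extremes its values lay between 153 and 270 CPM, so pools 9 and 1 were separated from the rest in opposite directions. The TET1 locus overlaps the pseudogenes LOC132344123, LOC101903159 and LOC781771, which were not among the genes counted. TET2 (chr6:19895939-20039291) ranged from 0.581 to 9.09 CPM, with a median of 4.19 CPM, and reached 1 CPM in 26 pools. TET3 (chr11:10555697-10667899), the form known for oxidizing the paternal genome of the zygote, ranged from 0.267 to 3.43 CPM with a median of 1.69 CPM. TET2 exceeded TET3 in 23 pools, and TET3 reached 1 CPM in 20 pools.

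TDG (chr5:67632492-67653342), the glycosylase that removes oxidized methylcytosine, ranged from 19.9 CPM in pool 32 to 48.6 CPM in pool 31, with a median of 29.8 CPM. DPPA3 (chr5:101333531-101341323) was far more abundant, from 108 CPM in pool 31 through a median of 280 CPM to 411 CPM in pool 22. DPPA3 exceeded TET1 in 22 of 27 pools, and the ranges of these genes overlapped. The 10 genes together took between 804 CPM in pool 9 and 1655 CPM in pool 31, with a median of 1306 CPM.

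**Figure D1:**
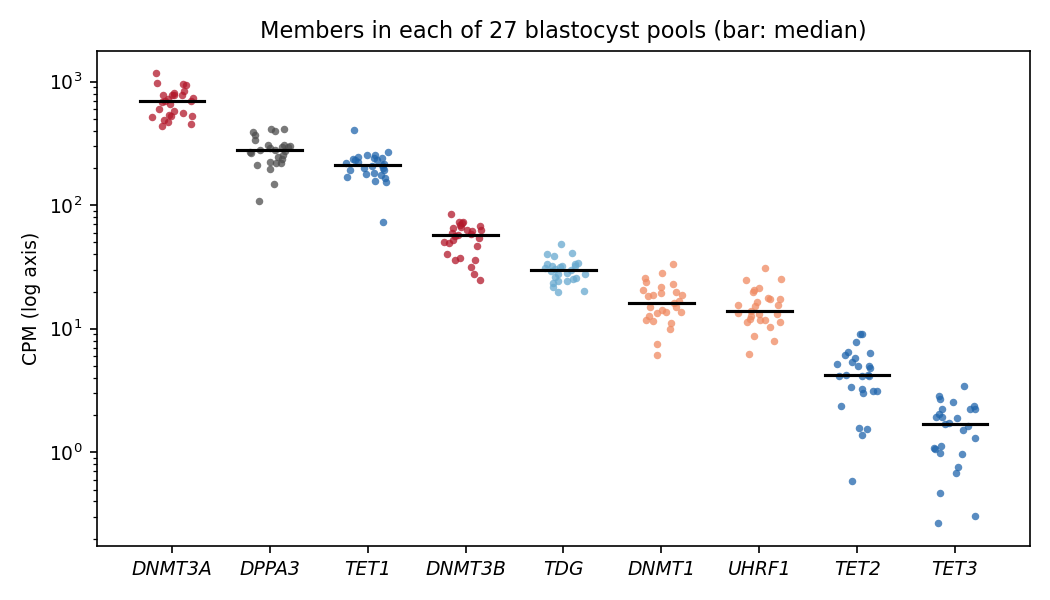
Abundance of 9 genes in each of the 27 blastocyst pools, in CPM on a log axis, ordered by median. Points are pools, black bars are medians, and colours mark de novo methyltransferases (dark red), maintenance genes (orange), TET genes (dark blue), TDG (light blue) and DPPA3 (grey). DNMT3L, with a median of 0 CPM, is not drawn. DNMT3A lies above every other gene, TET1 is the only TET gene above 10 CPM, and DNMT1 and UHRF1 share 1 range.

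The spread between pools was described for each of the 9 retained genes. The chi-square per degree of freedom was between 9.15 for TET3 and 1163 for DNMT3A, but it sets pools of different embryos against the counting error of reads alone, so a value above 1 was bound to arise. The ratio of the third to the first quartile over pools was 1.47 for DNMT3A and 1.52 for DNMT3B, which placed them at the 91.2 and 87.2 percentiles of the 500 genes nearest to each in level. TDG was among the steadier genes, with a ratio of 1.29 at the 26.8 percentile. The ratio was 1.77 for TET2 and 2.18 for TET3, yet these were at the 41.6 and 34.4 percentiles, as the median ratio of the genes nearest to them in level was 1.86 and 2.43.

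The extremes were shared by a few pools. Pool 1 was the highest of 27 for DNMT1, UHRF1, TET1 and TET2, but ranked 24 for DNMT3B. Pool 9 was among the 3 lowest pools for 5 genes, and it was the lowest for DNMT3B and TET1. Pool 31 was the highest for DNMT3A and TDG and the lowest for DPPA3, so DNMT3A was 10.9 times as high as DPPA3 there, against 1.14 times in pool 32.

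**Figure D2:**
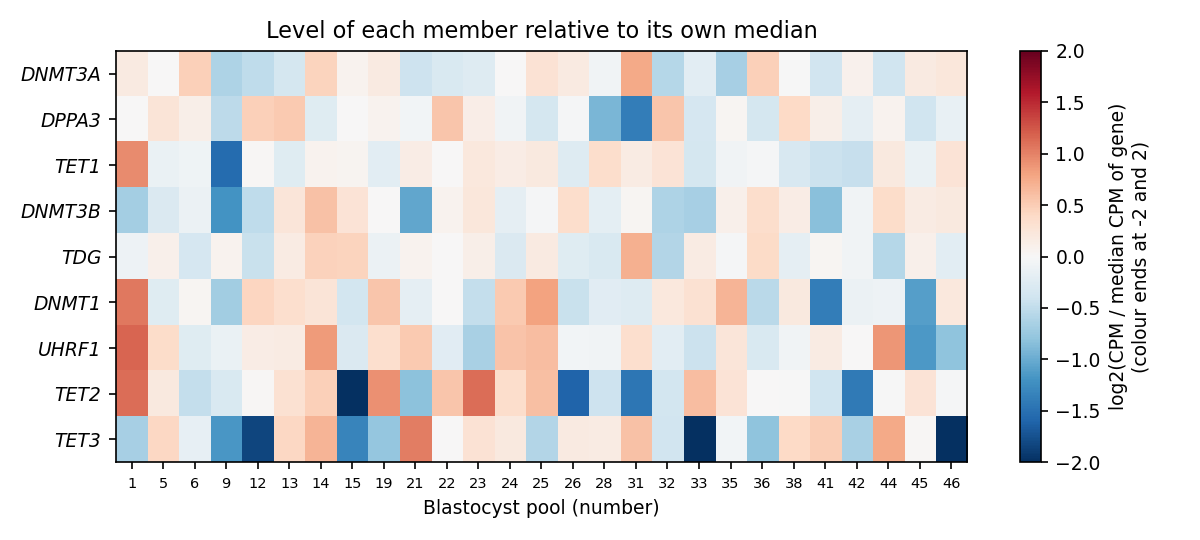
Level of each retained gene (rows) in each blastocyst pool (columns, by pool number) as log2 of its CPM over its own median. Red is above the median, blue is below it, and the scale ends at -2 and 2. Pool 1 is red for DNMT1, UHRF1, TET1 and TET2, and pool 9 is blue for DNMT3B and TET1.

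Whether the genes varied together was tested over the 36 pairs of the 9 retained genes by Spearman correlation (rho) and by Pearson correlation (r) of log2(CPM + 1), with two-sided permutation tests over the pools. These and all later tests treated the pools as independent, although pools shared IVF replicates. The values of rho lay between -0.43 and 0.54, and 24 of the 36 pairs were under 0.2 in size. At an unadjusted p of 0.05 there were 3 positive pairs and 1 negative pair, and after Benjamini-Hochberg adjustment over the 36 pairs there were 0 (smallest adjusted p = 0.164). Among all pairs of retained genes, 6.3% were positive and 4.18% were negative at the same unadjusted limit. For each pair below, the 2 farthest pools are those farthest from the median of its first-named gene alone. The strongest positive pair was DNMT1 and TET2 (rho = 0.54, permutation p = 0.00455; r = 0.43, permutation p = 0.0248; r = 0.37 without the 2 farthest pools). DNMT1 and UHRF1, which act at the same replication sites, had a rho of 0.45 (permutation p = 0.0195) and an r of 0.50 (permutation p = 0.00903), and an r of 0.49 without the 2 farthest pools. UHRF1 and TET3 had a rho of 0.48 (permutation p = 0.0124) and an r of 0.39 (permutation p = 0.0477). Without the 2 farthest pools, r was 0.58. The genes of this pair were highest in different pools, UHRF1 in pool 1 and TET3 in pool 21. The negative pair was DNMT3A and DPPA3, with a rho of -0.43 (permutation p = 0.0243) and an r of -0.50 (permutation p = 0.00661), or -0.35 without the 2 farthest pools. DNMT3A and DNMT3B had a rho of 0.36 (permutation p = 0.0685) and an r of 0.47 (permutation p = 0.0128), or 0.56 without the 2 farthest pools.

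**Figure D3:**
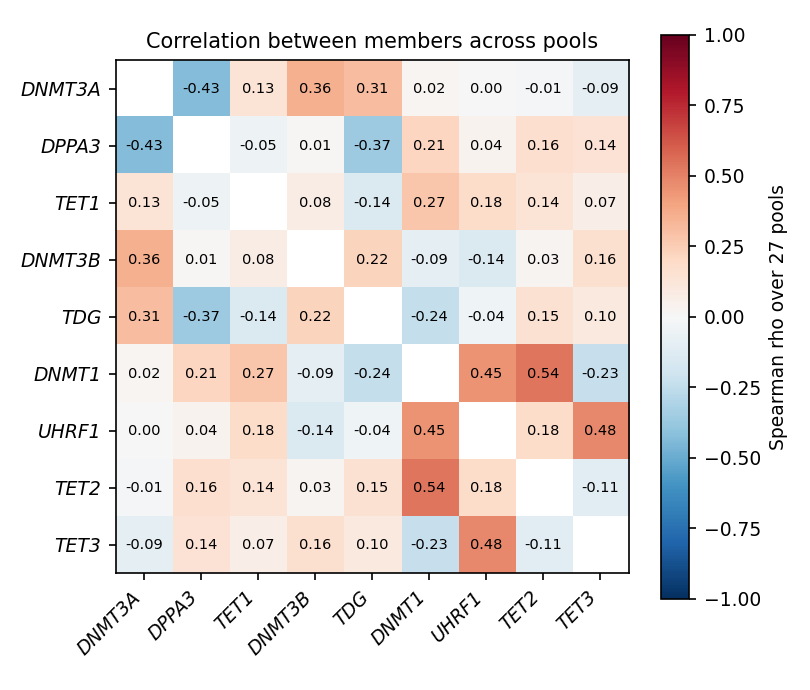
Spearman rho over 27 pools for each of the 36 pairs of retained genes, printed in the cells and coloured from -1 (blue) to 1 (red). The strongest values are 0.54 for DNMT1 with TET2 and -0.43 for DNMT3A with DPPA3.

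The blastocyst holds cells of several lineages, and each pool was a bulk sample, in which fewer cells of a type and less RNA per cell cannot be told apart. The level of each gene was therefore set against the summed CPM of marker lists. The slope is the change in log2 abundance of the gene per unit of log2 summed marker CPM, from edgeR's quasi-likelihood test, and a gene was called at an adjusted p of 0.05 or less after Benjamini-Hochberg adjustment over all retained genes.

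DNMT3A rose and DPPA3 fell with the trophectoderm markers, and DPPA3 rose with the epiblast markers. DNMT3A had a slope of 1.11 (SE 0.164, edgeR adjusted p = 0.00014) on the trophectoderm level, where 3.93% of all genes tested were called rising and 6.37% were called in either direction. DPPA3 had a slope of -0.85 (95% interval -1.25 to -0.44, edgeR adjusted p = 0.0102), where 2.43% were called falling. On the epiblast level, the slope of DPPA3 was 0.73 (SE 0.133, edgeR adjusted p = 0.00231), with 2.51% of genes called rising, 2.47% falling and 4.98% in either direction. DNMT3A was not called on epiblast (slope -0.36, edgeR adjusted p = 0.198; without pool 31, slope -0.08), and the other 7 genes were called on neither level. Over the pools, DNMT3A and the trophectoderm sum had a rho of 0.77 (permutation p = 1e-05, the smallest that 100000 resamples can give) and an r of 0.77 (permutation p = 2e-05), or 0.73 without pools 12 and 31. The 4 pools highest in DNMT3A were pools 31, 6, 36 and 14. DPPA3 and the trophectoderm sum had a rho of -0.59 (permutation p = 0.00143) and an r of -0.67 (permutation p = 0.00022), or -0.56 without these pools. DPPA3 and the epiblast sum had a rho of 0.52 (permutation p = 0.0061) and an r of 0.72 (permutation p = 7e-05), or 0.47 without pools 31 and 32.

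The trophectoderm calls depended on the keratins in the sum. KRT8, which with KRT18 builds the intermediate filaments of simple epithelia, made up a median of 67.6% of the trophectoderm sum. With DNMT3A, rho was 0.77 for KRT8, 0.72 for KRT18, 0.63 for TFAP2A, 0.56 for GATA3 and 0.52 for CDX2. It was 0.45 for DAB2 and 0.25 for GATA2, but -0.06 for TEAD4, -0.13 for ELF5 and -0.31 for TFAP2C. With DPPA3, 7 of the 10 markers had a negative rho, from -0.67 for KRT18 to 0.44 for TFAP2C. When KRT8 and KRT18 were left out of the sum, neither gene was called, with slopes of 0.69 for DNMT3A (edgeR adjusted p = 0.267) and -0.46 for DPPA3 (edgeR adjusted p = 0.463). That sum weighs DAB2 most, with a median of 935 CPM against 221 CPM for TFAP2C, the next marker. With equal weights for all 10 markers, DNMT3A was called (slope 1.31, edgeR adjusted p = 0.0193) and DPPA3 was not (slope -0.81, edgeR adjusted p = 0.149).

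Pool 31 also mattered for DPPA3. Without it, the slopes of DPPA3 were -0.68 on trophectoderm (edgeR adjusted p = 0.0510) and 0.61 on epiblast (edgeR adjusted p = 0.0605), whereas DNMT3A had a slope of 1.00 on trophectoderm (edgeR adjusted p = 0.00199). POU5F1, a pluripotency factor that is still widely transcribed in the bovine trophectoderm at this stage, made up a median of 77.6% of the epiblast sum. For DPPA3, rho was 0.59 with POU5F1, 0.34 with SOX2 and 0.02 with NANOG, and with equal weights for the epiblast markers the slope was 0.67 (edgeR adjusted p = 0.196).

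**Figure D4:**
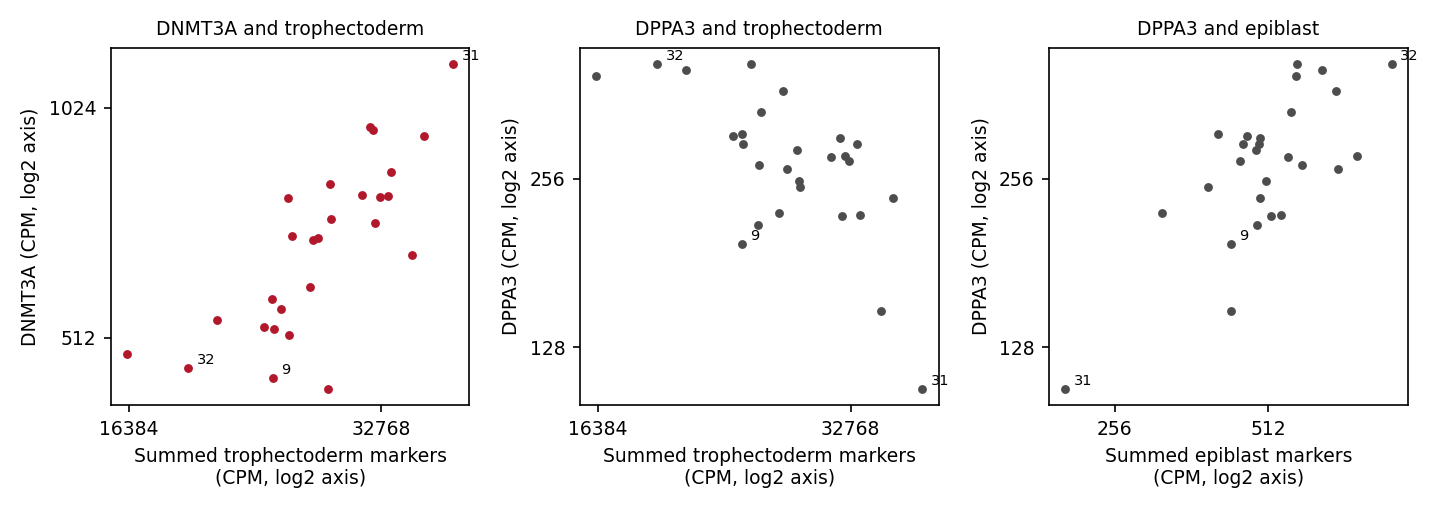
DNMT3A and DPPA3 (CPM, log2 axis) against the summed CPM of trophectoderm or epiblast markers (log2 axis), with 1 point for each of the 27 pools and pools 9, 31 and 32 numbered. DNMT3A rises with the trophectoderm sum (rho = 0.77). DPPA3 falls with it (rho = -0.59) and rises with the epiblast sum (rho = 0.52), with pool 31 at the end of each plot.

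None of the 9 genes was called with the hypoblast markers, where 4.11% of all genes were, 2.73% rising and 1.38% falling. DNMT3B had a slope of 0.50 (SE 0.163, edgeR adjusted p = 0.0777) and TET1 a slope of 0.48 (SE 0.162, edgeR adjusted p = 0.0886). Pool 9 was the lowest pool for DNMT3B, for TET1 and for the hypoblast sum. Without it, the slope of TET1 was -0.0091 and that of DNMT3B was 0.43 (edgeR adjusted p = 0.689), and no gene of those tested was called by edgeR (1069 at an unadjusted p of 0.05). Without pool 31, both genes were called (edgeR adjusted p = 0.0467 for DNMT3B and 0.0454 for TET1).

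S-phase markers were examined because DNMT1 and UHRF1 work behind the replication fork. No gene of the 9 was called, where 0.976% of all genes were, 0.561% rising and 0.415% falling. The slope was 1.57 for DNMT1 (SE 0.581, edgeR adjusted p = 0.179) and 0.28 for UHRF1 (SE 0.633, edgeR adjusted p = 0.898). Without pool 32, the slope of DNMT1 was 2.47 (edgeR adjusted p = 0.186). The smallest adjusted p-values were those of genes outside the maintenance pair, with slopes of -1.23 for TDG (SE 0.356, edgeR adjusted p = 0.0835) and 1.25 for DPPA3 (SE 0.362, edgeR adjusted p = 0.0831). Over the pools, DNMT1 and the S-phase sum had a rho of 0.58 (permutation p = 0.00176) and an r of 0.51 (permutation p = 0.00685), or 0.56 without pools 32 and 45. TDG had a rho of -0.58 (permutation p = 0.00176) and an r of -0.59 (permutation p = 0.00125), or -0.52 without these pools. DPPA3 had a rho of 0.55 (permutation p = 0.00295) and an r of 0.56 (permutation p = 0.00471), or 0.50 without them. With TMM scaling, rho with the S-phase level was 0.42 for DNMT1, -0.50 for TDG and 0.45 for DPPA3. With equal marker weights it was 0.38, -0.38 and 0.28. The S-phase and epiblast sums themselves moved together (rho = 0.59, r = 0.62), so the relations of DPPA3 to these levels cannot be told apart. TDG had a negative rho with each of the 16 S-phase markers, from -0.52 to -0.0018, although with TMM scaling it was 0.05 for MCM4. For DPPA3, 10 of the 16 were positive and 6 negative, from -0.24 to 0.61, with a median of 0.19. For DNMT1, rho lay between -0.06 and 0.51, with a median of 0.21. RRM2 made up a median of 30.9% of the S-phase sum. Its rho was 0.51 with DNMT1, -0.52 with TDG and 0.50 with DPPA3. With equal weights for the S-phase markers, the slope was 1.48 for DNMT1 (edgeR adjusted p = 0.263) and -0.98 for TDG (edgeR adjusted p = 0.275). For DPPA3 it was 0.72 (edgeR adjusted p = 0.436). DESeq2, run as an alternative, called TDG (adjusted p = 0.0266) and DPPA3 (adjusted p = 0.0321). TDG had a slope of 0.64 on trophectoderm (SE 0.204, edgeR adjusted p = 0.0533), and this was -0.0295 when KRT8 and KRT18 were left out. It was called without pool 9 (edgeR adjusted p = 0.0467).

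**Figure D5:**
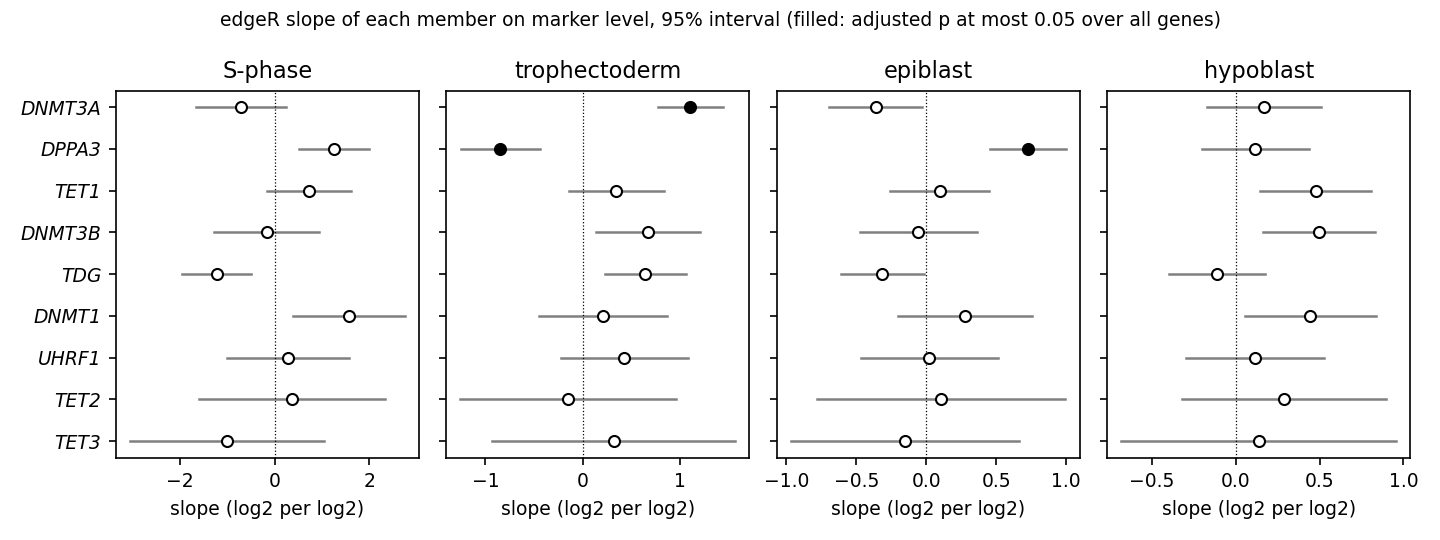
Slope of each retained gene on the level of 4 marker lists, in log2 abundance per log2 summed CPM, with 95% intervals from edgeR over 27 pools. Filled points had an adjusted p of 0.05 or less over all genes, and these are DNMT3A and DPPA3 on trophectoderm and DPPA3 on epiblast. Each panel has its own scale, and the intervals of TET2 and TET3, the genes of lowest count, are the widest.

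No gene of the 9 was related to the total count of the pool. No retained gene was called by edgeR or by DESeq2, where edgeR placed 340 genes, or 2.76%, at an unadjusted p of 0.05 and DESeq2 placed 388. Oocyte-derived transcripts, added after seeing that pool 1 was extreme, were related to 12 of all genes (0.0976%), all rising, and to none of the 9. Without pool 1, no gene of those tested was called by edgeR (1159 at an unadjusted p of 0.05). The slopes were 0.44 for DNMT1 (SE 0.186, edgeR adjusted p = 0.508), or 0.29 without pool 1, and 0.71 for TET2 (SE 0.304, edgeR adjusted p = 0.518). That of TDG was negative, at -0.29 (SE 0.125, edgeR adjusted p = 0.511). DNMT1 had a positive rho with all 9 retained oocyte-derived markers, from 0.0037 to 0.60, and UHRF1 with 8 of 9, up to 0.71 for NPM2. TET1 and TET2 were also positive with 8 of 9. DPPA3 was negative with 2 of 9, nil with NPM2 (rho = 2.01e-17) and positive with the rest. With TMM scaling, the rho of DNMT1 was -0.05 with ZP3 and -0.015 with OOEP, and that of DPPA3 was -0.05 with NPM2. All 6 retained leukocyte markers had a negative rho with DNMT3A, between -0.56 and -0.31, and with DNMT3B, between -0.65 and -0.10. All 6 were also negative with TET1 and TET3, and all 6 were positive with DNMT1 and DPPA3. With TMM scaling, the rho of DNMT1 with CD14 was -0.03. The share of all retained genes with such runs of 1 sign was not calculated. The part of the oocyte-derived and leukocyte markers in the results was not tested.

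The genes whose pattern over the 27 pools was most like each of the 9 were found by rho against the other retained genes. The 3 named are the highest of 12309 values, a choice that by itself gives a high rho, and none was tested. DNMT1 was nearest to TEAD4, the transcription factor of trophectoderm specification (rho = 0.81), followed by VCL (0.79) and EPB41L2 (0.75), which link the cytoskeleton to the membrane. DNMT3A was nearest to FADS3 (0.83), PRELID1 (0.82) and SLC9A3 (0.79), a sodium-proton exchanger. DNMT3B was nearest to FGFR3 (0.84), a fibroblast growth factor receptor, TP53I13 (0.69) and TLE1 (0.66). UHRF1 was nearest to NPM2 (0.71) and ZAR1L (0.69), both known from the oocyte, and DPH2 (0.65). TET1 was nearest to FBXO21 (0.81), XPO5 (0.78), which exports microRNA precursors, and VEZF1 (0.72). For TET2 the nearest were TOP2B (0.76), RNF169 (0.70) and RPP40 (0.68), and for TET3 they were FAM219B (0.76), LUC7L2 (0.63) and ANKIB1 (0.62). TDG was nearest to VPS36 (0.71), WDR91 (0.70) and LYPD6 (0.68). DPPA3 was nearest to KNSTRN (0.85), a spindle protein, ZNF705A (0.82) and LOC512869 (0.82). None of these 27 genes was another of the 9. With TMM scaling, DNMT1 and UHRF1 kept all 3 of their nearest genes, DPPA3 kept 1 and the other 6 kept 2 each, and VEZF1 fell to rank 47 for TET1.

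Most of the wider methylation pathway, as listed here, was retained, where 12310 of all 32637 genes counted were. Of partners of maintenance methylation, 8 of 8 were retained, led by PCNA, the replication clamp, at a median of 403 CPM, with CDCA7L lowest at 1.26 CPM. Methyl-CpG readers were scarcer, with 5 of 7 retained, from ZBTB33 at 14.5 CPM to ZBTB4 at 0.0484 CPM. All 7 genes listed here under imprint protection were retained, from HNRNPU at 603 CPM to ZNF445 at 1.80 CPM. HNRNPU made up a median of 68.7% of the sum of that list, and the next gene was ATRX at 107 CPM. All 13 genes of base excision repair were retained, from PARP1 at 294 CPM to NEIL2 at 2.94 CPM. Among partners and regulators of TET enzymes 8 of 9 were retained, led by IDH1, which supplies the TET cosubstrate 2-oxoglutarate, at 251 CPM, with CXXC4 at a median of 0 CPM. For methyl donor supply, 9 of 12 were retained, led by MAT2A, the S-adenosylmethionine synthase, at 176 CPM, and MAT1A, its liver form, was at a median of 0 CPM. Of the 7 cytidine deaminases counted, only 3 were retained, and APOBEC4 was at a median of 0 CPM.

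Of these 53 retained genes, 2 rose with the S-phase markers, where 0.561% of all genes did, and none fell. They were LIG1, the ligase of replication and repair (slope 1.45, SE 0.311, edgeR adjusted p = 0.0161), and IDH1 (slope 1.34, SE 0.196, edgeR adjusted p = 0.000394). Without pool 32 neither was called, although the slopes were 1.53 for LIG1 (edgeR adjusted p = 0.202) and 1.12 for IDH1 (edgeR adjusted p = 0.131), and 3 genes of all tested were called in place of 120. With the trophectoderm markers, 4 of the 53 fell, where 2.43% of all genes did, and none rose, where 3.93% did. These were ZBTB33, the reader also named Kaiso (slope -1.11, edgeR adjusted p = 0.0428), ATRX, a chromatin remodeller (-0.89, edgeR adjusted p = 0.0271), OGT, the partner of TET proteins that adds N-acetylglucosamine (-0.88, edgeR adjusted p = 0.0247), and IDH1 (-0.54, edgeR adjusted p = 0.0416). None of the 4 was called without KRT8 and KRT18, and without pool 31 ATRX alone was. Without that pool the slopes of the others were -0.95 for ZBTB33, -0.71 for OGT and -0.58 for IDH1. ZBTB33 was not called without pool 9 (edgeR adjusted p = 0.0547), nor IDH1 without pool 32 (slope -0.31, edgeR adjusted p = 0.217). With the epiblast markers 3 rose, where 2.51% of all genes did, and none fell, where 2.47% did. They were OGT (slope 0.64, edgeR adjusted p = 0.0266), LIG1 (0.50, edgeR adjusted p = 0.0373) and MAT2B, the regulatory subunit of S-adenosylmethionine synthase (0.48, edgeR adjusted p = 0.00351). With equal weights for the epiblast markers none of the 3 was called, and without pool 31 or without pool 32 MAT2B alone was. The slopes of LIG1 and OGT were 0.55 and 0.49 without pool 31, and 0.41 and 0.67 without pool 32. With the hypoblast markers 3 rose, where 2.73% of all genes did, and none fell, where 1.38% did. They were TRIM28, which guards imprints with zinc finger proteins (slope 1.15, edgeR adjusted p = 0.000362), USP7, a deubiquitinase that stabilizes DNMT1 and UHRF1 (0.88, edgeR adjusted p = 0.0347), and EHMT1, a histone methyltransferase (0.60, edgeR adjusted p = 0.00277). None of these was called without pool 9. The median slope of the 53 genes was 0.03 on S-phase, -0.06 on trophectoderm, 0.03 on epiblast and 0.06 on hypoblast, against -0.05, 0.0039, -0.0026 and 0.01 over all genes.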

How the data were processed

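RNA from 27 pools of 2 blastocysts was made into 3' cDNA libraries (SMART-Seq v4 3' DE). The authors used fastp to trim the first reads, STAR for alignment to ARS-UCD2.0 and featureCounts for assignment to genes, and the values they deposited are raw counts that were not normalized. Versions and the annotation release are not given in the sources used here. Reads are not molecules, so the floor of 3 counts covers counting error only.

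The labels give no treatment or replicate for a pool, and 0 columns were left unused. The paper took its blastocysts from only a few IVF replicates, so many pools shared a replicate, but which ones is not known here. The paper's models accounted for replicate, and those used here did not. The p-values treat the pools as independent and measure the spread between these pools. Relations were not recomputed within replicates, and the part that replicate or treatment differences have in them was not tested. CPM was calculated from the total count over all genes. The 10 genes, the marker lists and the lists of pathway genes were chosen with earlier results of these data known. Genes named were the 10 genes, the 3 nearest of each, the highest and lowest of each pathway list, and all pathway genes called on a marker list. The highest gene of 1 list is not reported here. Slopes came from edgeR 4.0.16 (glmQLFit, glmQLFTest, TMM) in R 4.3.3 over retained genes, leaving marker genes of the list out of counts. Correlations used 100000 two-sided permutations (numpy 2.4.6, scipy 1.17.1). Alternatives were TMM, RLE or DESeq2 1.42.0 scaling, the DESeq2 Wald test, other filters, pseudocounts and correlations, the total count as covariate, 18 pools with at least 10 CPM of Y-linked transcripts, and pool 9 left out. Equal marker weights, trophectoderm without keratins, pools 1, 31 or 32 left out, the oocyte-derived list, and the Y-linked limit for marker relations were chosen after seeing the data. Calculations were tested on simulated data. Gene positions are those of RefSeq for ARS-UCD2.0. Promoter and protein sequences were not used here.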

Additional observations from a re-analysis of the deposited data

How the results depend on the processing

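Median CPM of the 9 retained genes stayed between 0.962 and 1.02 times the reported value under 3 other scalings. The quartile ratio of UHRF1 was 1.57 with TMM. Of the 36 gene pairs, 0 passed adjustment under each of 6 alternatives.

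Of the 45 relations of the genes to 4 marker sums and the total count, 6 passed by rho when adjusted over these relations. This was 2 with TMM, 3 without pool 9, 1 without pool 31, 2 without pool 32, 1 with equal marker weights, 3 with trophectoderm lacking the keratins, and 1 in the 18 pools high in Y-linked transcripts.

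Counts of all genes called were 397 (S-phase), 937 (epiblast), 868 (hypoblast) and 45 (oocyte-derived) by DESeq2, against 120, 613, 506 and 12 by edgeR. With all genes having any count they were 798 (S-phase), 1229 (trophectoderm, against 783), 959 (epiblast), 946 (hypoblast), 561 (total count, against 0) and 510 (oocyte-derived). With equal weights they were 269 (S-phase), 1 (epiblast), 87 (hypoblast) and 46 (oocyte-derived). Leaving out pools gave 0 (hypoblast, without pool 9; 1069 unadjusted), 272 (trophectoderm), 72 (epiblast), 827 (hypoblast) and 7 (oocyte-derived) without pool 31, 3 (S-phase) and 323 (epiblast) without pool 32, and 0 (oocyte-derived, without pool 1; 1159 unadjusted). Trophectoderm without the keratins gave 104. The cause of these changes was not tested.

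DNMT3A was called on trophectoderm in 8 of 9 alternatives (slope 0.69 to 1.31), DPPA3 in 6 of 9 (-0.89 to -0.46), and DPPA3 on epiblast in 6 of 8 (0.61 to 0.78). Slopes that changed sign were TDG on trophectoderm (-0.0295 without the keratins) and TET1 on hypoblast (-0.0091 without pool 9). TDG on trophectoderm was called by DESeq2 (adjusted p = 0.0395) and without pool 9 (edgeR adjusted p = 0.0467), and DNMT3B and TET1 on hypoblast by DESeq2 (adjusted p = 0.027 and 0.0146). Genes under about 5 CPM, TET2 and TET3 here, had the widest intervals. No paired analysis was made, because the labels give the pools no groups and no shared replicate numbers. The paper lists a treatment and a number of assigned reads for each of its samples, and these were not matched to the pools here.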
